A study of Mus musculus with 13 samples.

Results

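Endocrine cells of the gut are made under the control of a small set of transcription factors, and 5 of them were followed here cell by cell: Neurog3, Neurod1, Insm1, Isl1 and Fev. They were chosen by gene symbol, as 5 of the 16204 genes in the count tables of 13 single-cell libraries of mouse small intestine. Neurog3 was detected, with at least 1 transcript, in 55 of 892 cells. Neurod1 was detected in 137 cells, Insm1 in 131, Fev in 115 and Isl1 in 82. The highest value of any member in any cell was 37.6 transcripts.

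All mice carried Lgr5-CreERT2 in the C57Bl6/J background together with a Rosa26LSL-YFP reporter. Lgr5 is a gene of intestinal stem cells, so tamoxifen-induced Cre marks these cells and their later offspring with YFP (traced cells). Cells were sorted 5 days after induction as traced cells (5 libraries, 332 cells) and 3 weeks after as traced CD24+ cells (1 library, 62 cells). A further library of 50 cells is labelled 3-week non-traced CD24+, but the combined table names its cells with YFP and without CD24; it entered no test. The 8-week groups were traced CD24+ cells (3 libraries, 221 cells), traced cells without the CD24 gate (1 library, 80 cells) and non-traced CD24+ cells (2 libraries, 147 cells). CD24 is a surface protein that served as a sorting gate. Cre acts only where the Lgr5 promoter is active, and a cell without YFP can still descend from an Lgr5+ cell that did not recombine. The number of animals behind each library and their age are not given in the labels, so p-values measure the spread between libraries, which may be technical.

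Neurog3 is a basic helix-loop-helix (bHLH) factor that is switched on briefly in progenitors of the secretory lineage and is required for all endocrine cells of the mouse small intestine. It activates Neurod1, another bHLH factor, and Insm1, a zinc finger repressor, both of which stay on longer in the endocrine lineage. Isl1, a LIM homeodomain factor, and Fev (also called Pet1), an ETS factor best known from serotonin neurons, act later. Notch signalling between neighbouring cells limits how many progenitors switch Neurog3 on.

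The members lie on separate parts of the genome (GENCODE vM21 gene models on GRCm38). Neurog3 spans chr10:62133090-62134763 on the plus strand and Insm1 chr2:146221921-146225020, also on the plus strand. Fev (chr1:74881509-74885419), Neurod1 (chr2:79452521-79456751) and Isl1 (chr13:116298281-116309689) are on the minus strand. Promoter windows were found for 4 of the 5 members, Insm1 being named only. They run from 250 bases before to 50 bases after the gene start, are read 5′ to 3′ on the gene's strand and come from RefSeq (GRCm38.p6). They are shown because bHLH factors such as Neurog3 and Neurod1 bind E-boxes, spelled CANNTG and identical in form on both strands; the capitals mark each E-box.
Neurog3 promoter (chr10:62132840-62133139, plus strand): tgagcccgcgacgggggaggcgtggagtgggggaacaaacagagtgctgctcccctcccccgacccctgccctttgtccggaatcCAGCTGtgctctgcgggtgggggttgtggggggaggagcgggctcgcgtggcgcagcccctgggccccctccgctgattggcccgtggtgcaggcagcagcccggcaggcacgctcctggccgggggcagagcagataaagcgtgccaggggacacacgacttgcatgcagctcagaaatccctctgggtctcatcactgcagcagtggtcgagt
Neurod1 promoter (chr2:79456587-79456886, minus strand): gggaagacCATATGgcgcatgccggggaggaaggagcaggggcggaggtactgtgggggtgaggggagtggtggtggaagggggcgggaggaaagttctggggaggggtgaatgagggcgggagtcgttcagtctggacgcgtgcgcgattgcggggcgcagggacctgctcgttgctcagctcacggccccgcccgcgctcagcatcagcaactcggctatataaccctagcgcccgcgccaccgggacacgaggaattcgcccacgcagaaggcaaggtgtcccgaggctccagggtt
Isl1 promoter (chr13:116309639-116309938, minus strand): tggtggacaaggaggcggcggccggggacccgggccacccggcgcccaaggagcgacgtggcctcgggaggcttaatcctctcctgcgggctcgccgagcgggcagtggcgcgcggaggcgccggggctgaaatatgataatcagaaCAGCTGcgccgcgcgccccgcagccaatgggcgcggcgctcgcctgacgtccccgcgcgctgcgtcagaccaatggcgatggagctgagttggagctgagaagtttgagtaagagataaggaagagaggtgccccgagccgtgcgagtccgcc
Fev promoter (chr1:74885359-74885658, minus strand): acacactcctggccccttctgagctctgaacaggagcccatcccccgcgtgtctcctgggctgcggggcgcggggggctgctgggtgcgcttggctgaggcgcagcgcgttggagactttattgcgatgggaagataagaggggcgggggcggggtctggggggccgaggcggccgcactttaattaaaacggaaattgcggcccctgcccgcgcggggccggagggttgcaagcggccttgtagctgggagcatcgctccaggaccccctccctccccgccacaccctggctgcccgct
The Neurog3 window held 1 E-box, CAGCTG, whose first base is at -165 from the start. The Neurod1 window held 1, CATATG, at -242. The Isl1 window held 1, CAGCTG, at -103, and the Fev window held 0. Among 32851 RefSeq promoter windows of this length, 72.3% held an E-box of any spelling, 16.3% held CAGCTG and 3.91% held CATATG. The matches describe these letters only.

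Libraries held 421675 to 1385266 transcripts, and the kept cells, those with at least 3000 transcripts, had library medians of 5412 to 14458. Every library held 96 barcodes under the same numbering, so all 96 numbers recur in each library and do not mark shared cells. Cells were put into classes by marker lists. Granule-positive cells carried at least 3 genes and 10 transcripts of a list of secretory granule genes (Chga, Chgb, Cpe, Scg2, Scg3, Scg5, Pcsk1, Pcsk1n, Pcsk2, Scgn), the machinery that packs peptide hormones; there were 111. Tuft-marker cells carried at least 3 genes and 10 transcripts of a tuft list, and Paneth-marker cells had at least 10% of their transcripts from a Paneth list; both of these limits were set after the data had been seen. Libraries of 5 days and of later times differed in sex-linked genes: Xist stood at 0.813 to 1.74 per 10000 transcripts in the later libraries, against 0 to 0.0134 in the 5-day libraries. Of the 5-day libraries, replicate 4 stood apart. Ghrl, the ghrelin gene, was detected in 56 of its 61 granule-negative cells with a median of 30.8 transcripts, against 1 of 72 to 30 of 62 such cells in the other 5-day libraries. Fev was detected in 12 of those 61 cells. In 8-week traced CD24+ replicate 2, Ghrl was detected in 30 of 48 granule-negative cells, but at a lower level, with a median of 1.00 and a highest value of 8.13 transcripts. In 8-week non-traced CD24+ replicate 1, 1 cell held 145041 transcripts, while the next largest cell of the series held 64869. This cell passed as granule-positive at the edge of both limits, with 3 granule genes and 10.1 granule transcripts. All its transcripts count in the granule-positive sums of that library. Calls of the members that change without this library are given without it.

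In tuft-marker cells the members were rare, and so was Neurog3 in Paneth-marker cells, which sets the background for a single Neurog3 transcript. Among 158 tuft-marker cells, of a cell type that needs no Neurog3 in the mouse, 0 held a Neurog3 transcript, which allows a share of up to 2.31% (exact binomial interval, counting error only). Neurod1 was detected in 3 of these cells, Insm1 in 3, Isl1 in 4 and Fev in 2. Their median depth was 7687 transcripts. Among 75 Paneth-marker cells, with a median of 17422 transcripts, Neurog3 was detected in 3, each time with 1 transcript, and Neurod1 in 8. Among the 111 granule-positive cells Neurod1 was detected in 102, Insm1 in 95, Fev in 91, Isl1 in 69 and Neurog3 in 28. Neurog3 was not confined to granule-positive cells. Of the 548 cells in none of these classes (median 8675 transcripts), 24 held Neurog3, with 285 transcripts in sum against 194 in the granule-positive cells; Neurod1 was detected in 24 of them, Insm1 in 31, Fev in 20 and Isl1 in 8. In the 8-week traced CD24+ libraries 11 of 93 such cells held 213 Neurog3 transcripts, and 18 of 50 granule-positive cells held 136. The median depth of all Neurog3-positive cells was 7302 transcripts and that of all Neurog3-negative cells 8677.

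Levels of each member are given as raw CPM, counts per 1000000 transcripts of a library's kept cells, with no scaling between libraries. Fewer cells that express a gene and less RNA per cell cannot be told apart in such a level, so the number of positive cells is given with it. Neurog3, the first of the set to act, was the member that set the 8-week traced CD24+ libraries apart. It stood at 116, 119 and 143 CPM in these, in 16 of 87, 7 of 65 and 9 of 69 cells. The 2 non-traced CD24+ libraries held 20.03 and 4.36 CPM, in 4 of 84 and 1 of 63 cells. In the 5-day traced libraries the level was 2.69, 42.6, 16.5, 21.5 and 31.98 CPM, from 2 to 5 cells each. The 3-week traced CD24+ library stood at 41.9 CPM (3 of 62 cells), and the library labelled 3-week non-traced CD24+ held none in 50 cells. The 8-week traced library without the gate held 5.41 CPM, from 1 of 80 cells. No single cell gave more than 28.4% of the Neurog3 transcripts of an 8-week traced CD24+ library.

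Neurod1, which Neurog3 activates, had the highest level of the set in each 8-week traced CD24+ library. In 8-week traced CD24+ libraries it stood at 141, 172 and 167 CPM (24 of 87, 20 of 65 and 20 of 69 cells), against 166 and 121 in the non-traced CD24+ libraries (25 of 84 and 13 of 63 cells). Earlier values were lower, with 7.05 to 36.7 CPM in the 5-day libraries and 85.7 in the 3-week traced CD24+ library. The 8-week traced and non-traced values overlapped. Insm1, a repressor that works beside Neurod1, overlapped too, with 89.1, 104.7 and 98.2 CPM in 8-week traced CD24+ libraries and 98.7 and 81.8 in non-traced ones. Its 5-day values were 4.89 to 33.97 CPM. Unlike Neurod1, it was not lower in the 3-week traced CD24+ library, which stood at 107.2 CPM, above every 8-week library.

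Isl1, a factor of several peptide hormone cells, stood at 42.7, 129 and 91.9 CPM in the 8-week traced CD24+ libraries (8 of 87, 11 of 65 and 10 of 69 cells). Non-traced CD24+ libraries held 178 and 115 CPM (21 of 84 and 12 of 63 cells), so that the levels overlapped while the shares of cells did not. Among the 5-day libraries Isl1 was listed at 0 in replicate 1 and at 4.89 to 9.90 CPM in the others. The 3-week traced CD24+ library held 111.8 CPM of Isl1, within the range of the 8-week traced CD24+ libraries. Fev stood at 80.3, 108 and 36.7 CPM in 8-week traced CD24+ libraries and at 76.8 and 79.8 in non-traced ones, with overlap. In 5-day libraries Fev ranged over 4.04 to 31.7 CPM, and the 3-week traced CD24+ library held 34.7 CPM. The highest 5-day share of Fev-positive cells, 17 of 68, came from replicate 4, most of them granule-negative. The order of the levels at 8 weeks was therefore Neurod1, Neurog3, Insm1, Isl1 and Fev in traced CD24+ cells by group mean, and only Neurog3 and Insm1 did not overlap among neighbours in that order. In non-traced CD24+ cells Neurog3 was last, below all values of the other 4 members. CEL-seq counts 3' ends, one per transcript, so these levels need no division by gene length.

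**Figure D1:**
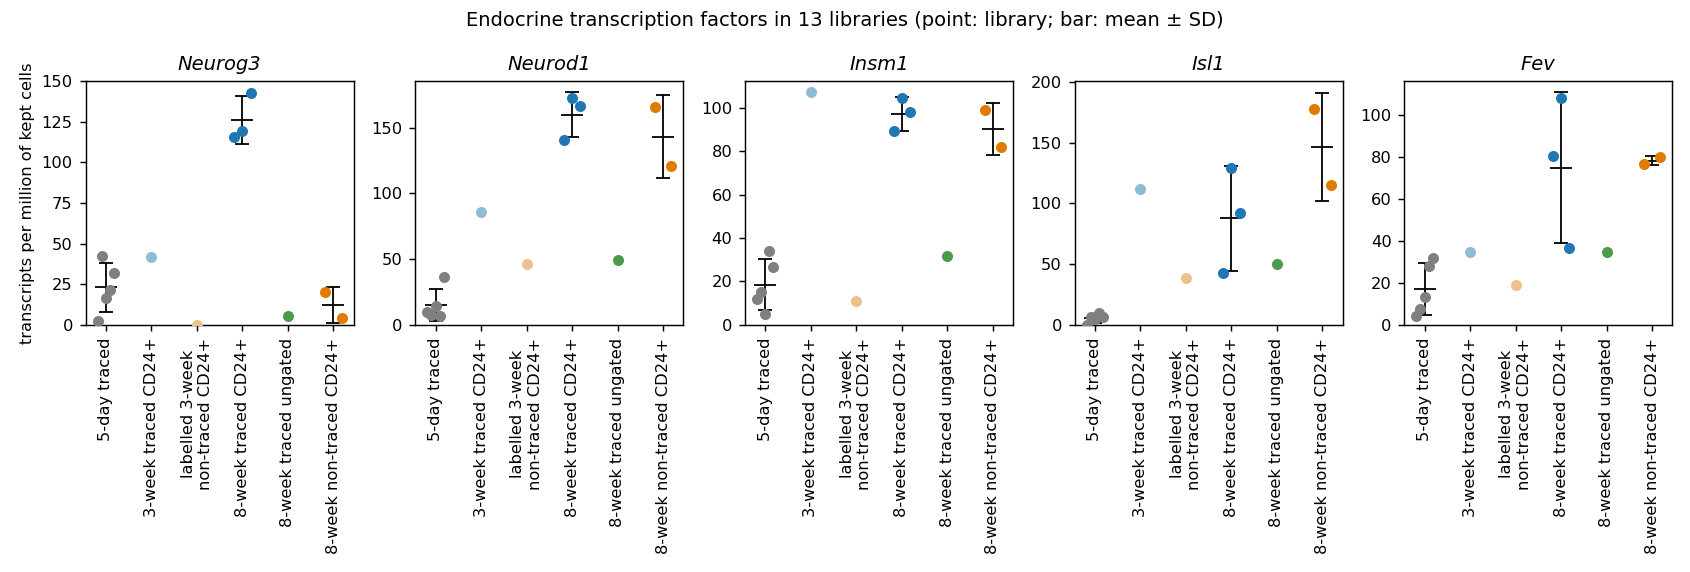
Level of each member in every library, in raw CPM (transcripts out of 1000000 of the kept cells, y axis), by group along the x axis; each point is a library, and for groups of several libraries the bars give the mean and SD. Neurog3 stands at 116 to 143 CPM in the 8-week traced CD24+ libraries and at 4.36 and 20.03 CPM in the 8-week non-traced CD24+ libraries, while the points of the other 4 members overlap between these groups.

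Traced and non-traced CD24+ cells at 8 weeks share their gate and time, and their comparison asks whether the offspring of the marked Lgr5+ cells differ in these factors from unmarked cells of the same gate. Neurog3 was higher in traced cells by 3.20 on the log2 scale (SE 0.36, adjusted p = 0.00107 by edgeR's quasi-likelihood test with Benjamini-Hochberg adjustment over 8762 genes). In that fit 4.23% of all genes were called, 1.56% as higher. All 3 traced libraries lay above both non-traced ones, as 34.8% of all genes did in 1 direction or the other. Leaving out non-traced replicate 1, which held 4 of the 5 non-traced Neurog3-positive cells, gave 4.81, and leaving out non-traced replicate 2 gave 2.67. The call held in all 15 alternative settings.

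The other 4 members were not called. Isl1 gave -0.82 (SE 0.34, adjusted p = 0.218 by edgeR), Neurod1 0.14 (SE 0.18, adjusted p = 0.758), Insm1 0.08 (SE 0.18, adjusted p = 0.866) and Fev -0.08 (SE 0.30, adjusted p = 0.936). Of 17 further endocrine transcription factors that could be tested, 0 were called by edgeR, with 6 at an unadjusted p under 0.05 and 0 called by DESeq2. Their median change was 0.12 against 0.01 for all genes. Among 10 genes of Notch signalling and secretory choice, Hes1, a repressor that Notch induces, was higher in traced cells by 1.04 (164 against 80.2 CPM in the scaling of edgeR; adjusted p = 0.0236 by edgeR). Gfi1b, a zinc finger repressor, was lower in traced cells (-1.17, adjusted p = 0.0444). Chromogranin A (Chga) was higher by 1.71 (adjusted p = 0.0236) and the secretogranin Scg3 changed by -1.50 (adjusted p = 0.0437), the 2 calls among 9 granule genes. Of 10 hormone genes, secretin (Sct) was the 1 called, at -1.30 (adjusted p = 0.0154). DESeq2 called Hes1 and Sct but not Gfi1b, Chga or Scg3. Of 15 alternative settings Hes1 and Chga were called in 12, Sct in 11, Scg3 in 8 and Gfi1b in 5. Without non-traced replicate 1 none of these 5 genes was called by edgeR: Hes1 stood at 1.13 (adjusted p = 0.193), Gfi1b at -0.93 (adjusted p = 0.468), Chga at 1.18 (adjusted p = 0.233), Scg3 at -0.77 (adjusted p = 0.61) and Sct at -0.80 (adjusted p = 0.272). The calls of Hes1, Gfi1b, Scg3 and Sct were also lost without traced replicate 1, those of Hes1 and Gfi1b without non-traced replicate 2, that of Gfi1b without traced replicate 2, and those of Gfi1b and Scg3 without traced replicate 3. The replicate block ended the calls of Gfi1b, Scg3 and Sct.

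Other cell types moved with the sort. Tuft-marker cells made up 21.8% ± 1.27 of traced CD24+ cells (SD, n = 3) and 55.95% ± 1.68 of non-traced CD24+ cells (SD, n = 2), and 6 of 6 tested tuft genes were lower in traced cells. Granule-positive cells made up 22.9% ± 2.9 of traced and 21.4% ± 3.37 of non-traced cells. Stem cell genes (4 of 8) and cell cycle genes (4 of 20) were called as higher in traced cells. The part of these shifts in the Neurog3 difference was not tested in the sums over all cells.

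By cells rather than transcripts, Neurog3-positive cells made up 14.1% ± 3.91 of the traced CD24+ libraries (SD, n = 3) and 3.17% ± 2.24 of the non-traced ones (SD, n = 2). That is a difference of 10.9 percentage points, with no overlap (exact two-sided permutation test over libraries, p = 0.2, the smallest this design allows). Isl1-positive cells made up 13.5% ± 3.95 of traced and 22.02% ± 4.21 of non-traced libraries, a difference of -8.49 points, again without overlap (exact p = 0.2). Of the 8762 genes tested, 26.8% had shares of positive cells that did not overlap between these groups. The differences for Neurod1 (3.91 points, exact permutation p = 0.6), Insm1 (2.69 points without overlap, p = 0.2, but -0.65 points with cells thinned to 3000 transcripts) and Fev (-0.46 points, p = 1) were smaller. With 5 members compared, none can pass a threshold of 0.05 in this design.

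Cells rich in Neurog3 came mostly from traced libraries. Cells with at least 2 Neurog3 transcripts numbered 24 in the traced CD24+ libraries (11, 6 and 7 by replicate) and 5 in the non-traced ones (4 and 1). Cells with at least 10 transcripts, a limit set after the data had been seen, numbered 12 in the traced libraries, 4 in each, and 0 in the non-traced ones. Of the traced cells with at least 2 transcripts, 9 were granule-negative, against 1 non-traced cell. Among granule-positive cells, Neurog3 was present in 18 of 50 traced cells (9 of 18, 5 of 17 and 4 of 15) and in 4 of 32 non-traced cells (3 of 20 and 1 of 12).

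The same contrast within granule-positive cells leaves the number of such cells aside. Here 2701 genes could be tested and 0 were called by edgeR (0.0%), with 87 at an unadjusted p under 0.05 and 4 called by DESeq2. Neurog3 differed by 2.86 on the log2 scale (SE 0.34) and missed the threshold (adjusted p = 0.0636 by edgeR). Its adjusted p was 0.0291 with DESeq2, 0.0142 with a block for the libraries whose names in the combined table end in II or in II and a number, 2.94e-07 with the replicate block and 0.297 without non-traced replicate 1. Over all alternatives it ran between 2.94e-07 and 0.999. Neurod1 gave 0.23, Insm1 -0.30, Isl1 -0.55 and Fev 0.09, each with an adjusted p of 0.999. Of 15 endocrine factors, 9 granule genes and 10 hormone genes tested there, 0 were called by edgeR or by DESeq2; unadjusted p-values under 0.05 were 2, 1 and 2.

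All 5 members were higher in 8-week traced CD24+ cells than in 5-day traced cells. Neurod1 was higher by 3.41 (SE 0.30, adjusted p = 1.47e-06 by edgeR's quasi-likelihood test) and Isl1 by 3.82 (SE 0.46, adjusted p = 1.98e-05). The change was 2.38 for Neurog3 (SE 0.34, adjusted p = 8.01e-05), 2.32 for Insm1 (SE 0.29, adjusted p = 2.90e-05) and 2.11 for Fev (SE 0.41, adjusted p = 0.00103). No member overlapped between these groups, as held for 36.6% of all genes. This contrast called 37.1% of 8514 genes, 18.7% as higher, so a call here is common. Of 13 further endocrine factors tested 13 were called as higher, with a median of 2.80 against 0.002 for all genes. They include Myt1 (3.82), a zinc finger factor, Sox4 (2.80), which works early in endocrine differentiation, and Pax6 (2.72). All 6 tested granule genes and 5 of 8 tested hormone genes (Cck, Gcg, Sct, Tac1, Tph1) were called as higher as well, although DESeq2 called 2 of the hormone genes, Gcg and Sct. Without replicate 4 of the 5-day libraries, which had Ghrl in most cells, Fev changed by 2.40 and Neurog3 by 2.34, both still called by edgeR.

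Time, gate and sex all differ between these groups and cannot be told apart. Tuft genes (6 of 6 tested) were called as higher and enterocyte genes (8 of 8) as lower in the 8-week traced CD24+ libraries. The 8-week traced library without the gate stood at the 5-day values for Neurog3 (5.41 CPM) and Insm1 (31.6 CPM), within their range for both. It lay between both groups for Neurod1 (49.2 CPM) and Fev (34.9 CPM), and within the range of the 8-week traced CD24+ libraries for Isl1 (50.5 CPM). Being 1 library, it has no test.

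The 55 Neurog3-positive cells differed in what else they expressed according to how much Neurog3 they held (classes of 1, 2 to 9 and at least 10 transcripts, set after the data had been seen). Of 17 cells with 1 transcript, 6 held Neurod1, 6 Insm1, 4 Isl1 and 6 Fev. Of 22 cells with 2 to 9 transcripts, 21 held Neurod1, 20 Insm1, 10 Isl1 and 15 Fev. Of 16 cells with at least 10 transcripts, 13 held Neurod1 and 14 Insm1, but only 3 held Isl1 and 4 Fev. Neither Isl1 nor Fev was detected in 10 of these 16 cells, in 2 of the 22 and in 11 of the 17. Their median depth was 9105, 7890 and 6360 transcripts from the lowest to the highest class.

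Granule genes had their highest median in the middle class. The granule list had a median of 4.51 transcripts per 10000 in cells with 1 Neurog3 transcript, 70.6 in cells with 2 to 9 and 4.01 in cells with at least 10. Hormone genes had medians of 11.2, 91.3 and 5.47 per 10000. The groups take unequal parts of the classes. In 8-week CD24+ cells (8, 17 and 12 by class) the hormone medians were 3.96, 112 and 2.06, but in 5-day traced cells (8, 3 and 3) they were 44.01, 14.1 and 5.70, highest in the class with 1 transcript. The cells of this class from 5-day replicate 4 held 73.1, 40.4, 53.8 and 47.6 per 10000, with Ghrl as the top hormone gene. Those from the other 5-day libraries held 94.9, 0, 3.08 and 4.44, so the 5-day order rests largely on replicate 4. The granule medians were 1.497, 84.4 and 6.86 in the 8-week CD24+ cells and 5.02, 15.7 and 2.84 in the 5-day cells. Granule-positive cells numbered 5 of 17, 18 of 22 and 5 of 16 in these classes. Goblet cell genes had medians of 45.9, 9.21 and 66.6 per 10000. Tuft genes had a median of 0 in every class, and the 3 Paneth-marker cells all held 1 Neurog3 transcript.

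**Figure D2:**
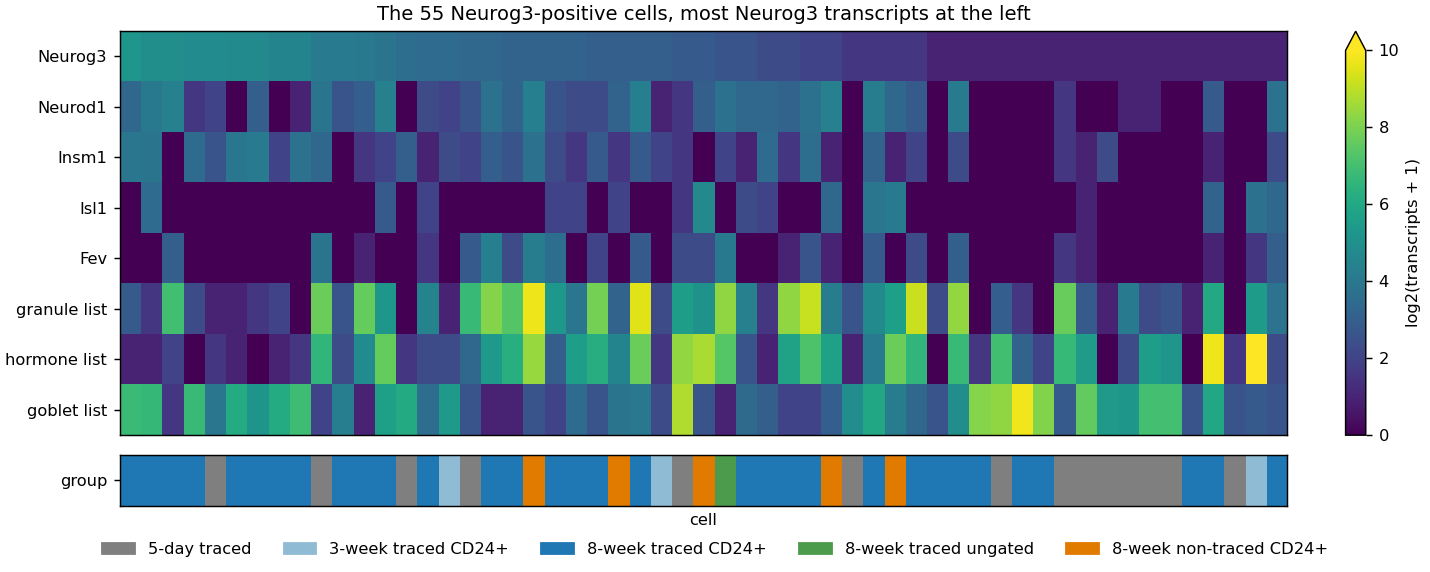
Each column is 1 of the 55 Neurog3-positive cells, ordered from the most Neurog3 transcripts at the left to 1 transcript at the right; colour gives log2(transcripts + 1) of each member and of the summed granule, hormone and goblet lists, and the strip below gives the group. Of the 16 cells with at least 10 Neurog3 transcripts 14 hold Insm1 and 3 hold Isl1, and granule transcripts are highest among the 22 cells with 2 to 9.

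Other factors showed which genes stood beside Neurog3 in the CD24+ libraries of 3 and 8 weeks, in pooled raw CPM of each class of cells. Sox4 was detected in 13 of 13 cells with at least 10 Neurog3 transcripts, at 2139 CPM, and at 243 in 18 cells with 2 to 9. Neurog3-negative granule-positive cells (65) held 132 CPM of Sox4 and the 325 other Neurog3-negative cells 173. Neurod2, a bHLH relative of Neurod1, was found in 11 of the 13 cells (336 CPM), in 16 of the 18 (188), in 5 of the 65 (7.11) and in 1 of the 325 (0.248). Neurod1, by comparison, was found in 63 of the 65.

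Pax4, a homeodomain repressor of early endocrine cells, stood at 316 CPM in the 13 cells, 97.1 in the 18, 21.3 in the 65 and 0 in the 325. Dll1, a Notch ligand, was found in 8 of the 13 cells at 326 CPM, against 60.5, 43.4 and 69.4 in the other classes. The pattern of Hes6, which opposes Hes1, was 388, 151, 119 and 131 CPM in the same order. Myt1 gave 295, 194 and 68.4 CPM in the first 3 classes and Rfx6, a winged helix factor needed for endocrine cells, 304, 182 and 203; both were at 0 in the 325 cells. Pax6 ran the other way, with 31.3, 66.5 and 299 CPM. Atoh1, the bHLH factor of the whole secretory lineage, was found in 1 of the 13 cells and in 0 of the 18, against 92 of the 325. Tff3, a goblet cell peptide, stood at 6295 CPM in the 13 cells, 661 in the 18 and 1843 in the 65, whereas the goblet mucin Muc2 was detected in 0 of the 13. Neurod1 stood at 972, 1080 and 608 CPM in the first 3 classes and at 4.47 CPM in the 325 cells. Isl1 was lower in the 13 cells (201 CPM) than in the 18 (491) and the 65 (581), and so was Fev (105.2, 493.4 and 360). No test was made on these classes. The 65 cells include the cell of 145041 transcripts, so that cell weighs on each pooled CPM given for them.

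Whether the other members appear in the same cells as Neurog3 was tested over the 7 libraries with at least 3 Neurog3-positive cells. Neurod1 was detected in 70.7% ± 26.9 of Neurog3-positive cells and in 15.8% ± 8.75 of Neurog3-negative cells (SD, n = 7 libraries). It was higher in 7 of 7 libraries, by 54.9 points (exact two-sided sign-flip test, p = 0.0156, the smallest that 7 libraries allow). By library, Neurod1 was found in 12 of 16, 7 of 7 and 6 of 9 Neurog3-positive cells of the 8-week traced CD24+ libraries, and in 4 of 4 of non-traced replicate 1. Replicate 4 of the 5-day libraries gave the lowest value, 1 of 5 Neurog3-positive cells against 3 of 63 Neurog3-negative cells.

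Insm1 gave 64.8% ± 20.1 in Neurog3-positive and 14.5% ± 6.14 in Neurog3-negative cells, higher in 7 of 7 libraries by 50.3 points (exact p = 0.0156). Isl1 gave 32.8% ± 23.03 against 9.80% ± 6.95, higher in 6 of 7 libraries by 22.99 points (exact p = 0.0312). For Fev the shares were 40.05% ± 18.2 and 15.1% ± 7.39, higher in 6 of 7 by 24.98 points (exact p = 0.0312). The exceptions were Isl1 in 5-day replicate 5 (0 of 3 Neurog3-positive cells against 1 of 57) and Fev in 5-day replicate 4 (1 of 5 against 16 of 63). Adjusted over the 4 tests, each p was 0.0312. With 1 library left out the smallest exact p is 0.0312 before adjustment, and in 5 of the 7 such settings, non-traced replicate 1 among them, none of the 4 genes passed (adjusted exact p = 0.0625). It was 0.125 where 2 transcripts of both genes were asked for, which left 4 libraries with 0.125 as the smallest p. Over all cells, 40 of 55 Neurog3-positive cells held Neurod1, which is 72.7% of Neurog3-positive and 29.2% of Neurod1-positive cells. Over the same cells 102 held both Neurod1 and Insm1, 74.5% of those with Neurod1 and 77.9% of those with Insm1. In granule-positive cells 90 held both, 88.2% of those with Neurod1 and 94.7% of those with Insm1. Of the granule-positive cells 27 held both Neurog3 and Neurod1, 96.4% of those with Neurog3 and 26.5% of those with Neurod1. The Neurog3-negative cells of the tests above were of all classes. Among granule-positive cells alone Isl1 ran the other way, in 13 of 28 cells with Neurog3 and in 56 of 83 without it. The other counts were 27 of 28 and 75 of 83 for Neurod1, 25 and 70 for Insm1, and 24 and 67 for Fev. These counts were not tested.

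**Figure D3:**
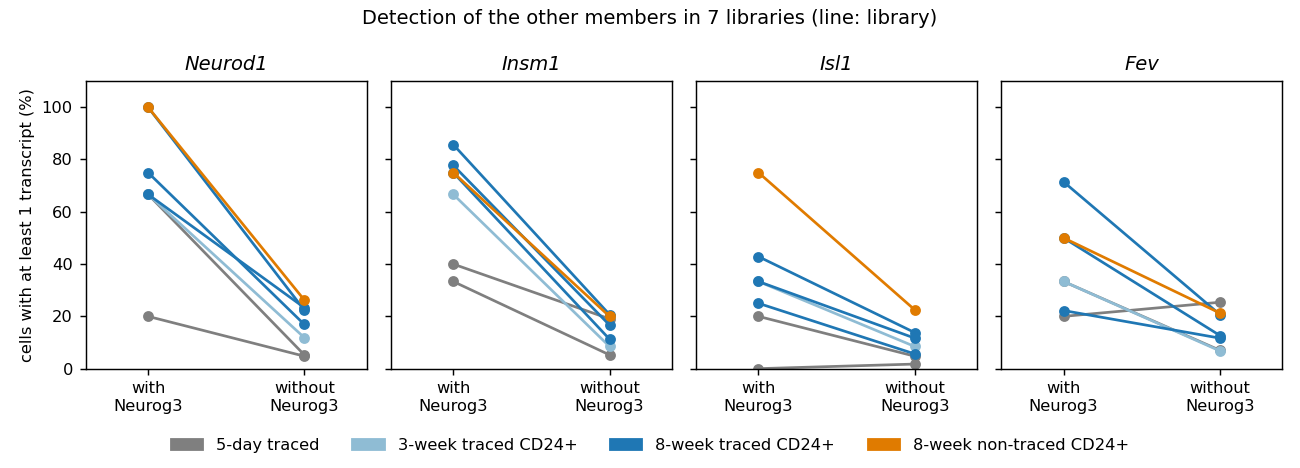
Share of cells (%, y axis) with at least 1 transcript of Neurod1, Insm1, Isl1 or Fev among cells with Neurog3 (left) and cells without it (right), with a line for each of 7 libraries, coloured by group. Neurod1 and Insm1 are higher in cells with Neurog3 in 7 of 7 libraries, and Isl1 and Fev in 6 of 7.

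The Neurog3-positive cells were then set against granule-positive cells without Neurog3. The first group held 44 cells with at least 1 Neurog3 transcript (median 7288 transcripts per cell), of which 22 were granule-positive. The second held 61 granule-positive cells with 0 Neurog3 transcripts (median 7726), and both came from the same 6 libraries, with library as a block. In 5-day replicate 4, 0 of the 5 Neurog3-positive cells were granule-positive. Its 7 Neurog3-negative granule-positive cells held 39.2 edgeR-scaled CPM of Neurod1, against 556 to 1288 in such cells of the other libraries. Neurog3 and the granule genes chose the cells, so that their calls are not read as results, and granule-positive cells carry hormone genes too, so hormone values are not independent of that choice. The same holds for any other gene that goes with the granule genes. The edgeR test called 41 of 2577 genes (1.59%), 16 as higher (0.621%) and 25 as lower (0.97%) in Neurog3-positive cells. These include Neurog3 and the granule gene Scg2, without which 39 remain, 15 higher and 24 lower.

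None of the other 4 members was called. Neurod1 averaged 799 ± 492 edgeR-scaled CPM in Neurog3-positive cells and 825 ± 506 in Neurog3-negative granule-positive cells (SD, n = 6 libraries), a change of 0.10 (SE 0.32, adjusted p = 0.948). The change of Insm1 was 0.33 (SE 0.32, adjusted p = 0.745), that of Fev -0.43 (SE 0.35, adjusted p = 0.682) and that of Isl1 -0.58 (SE 0.34, adjusted p = 0.542). Without non-traced replicate 1 the change of Isl1 was -1.05 and was called (adjusted p = 0.0276 by edgeR).

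Of 15 further endocrine factors tested, 4 were called as higher and 1 as lower (median 0.82, against -0.03 for all genes). Neurod2 averaged 207 ± 114 CPM in Neurog3-positive cells and 9.19 ± 8.06 in Neurog3-negative granule-positive cells (SD, n = 6), higher by 4.19 (SE 0.57, adjusted p = 0.00134 by edgeR). Sox4 averaged 1041 and 173 CPM, a rise of 2.22 (SE 0.33, adjusted p = 0.00182). Both were called in 14 of 15 alternative settings. Pax4 (198 and 29.9 CPM, rise of 2.73, adjusted p = 0.0168) was called in 11 of 15. Nkx2-2, a homeodomain factor of most endocrine cells (516 and 209 CPM, rise of 1.35, adjusted p = 0.0443), was called in 6 of 15. Pax6, which maintains hormone gene expression in mature endocrine cells, was lower in 6 of 6 libraries (56.5 and 443 CPM, -2.61, SE 0.36, adjusted p = 0.000966) and was called in 15 of 15. Only the Neurog3-negative cells all had to be granule-positive, and the part of this choice in the fall of Pax6 was not tested. Hes6 was higher in 6 of 6 libraries (0.92) but missed the threshold (adjusted p = 0.2), as did Myt1 (1.23, adjusted p = 0.133).

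Hormone genes divided. Of 10 tested, 5 were lower and none higher in Neurog3-positive cells (median -1.90). Only the Neurog3-negative cells all had to be granule-positive, against 22 of the 44 Neurog3-positive cells. The falls below are therefore not independent of how the cells were chosen, and the part of that choice was not tested. Gip, the incretin of K cells, averaged 1384 CPM in Neurog3-positive cells and 24564 in Neurog3-negative granule-positive cells (-6.79, SE 0.67, adjusted p = 3.43e-05 by edgeR). The change is fitted with library as a block and is larger than the ratio of these averages. Cholecystokinin (Cck) averaged 119 and 5941 CPM (-5.99, SE 0.49, adjusted p = 1.05e-05). Proglucagon (Gcg) was at 0 in all Neurog3-positive cells compared and at 2543 pooled CPM in the others, at least 360-fold lower against a floor of 3 counts over the group. Peptide YY (Pyy) was also at 0, against 282 pooled CPM, at least 39.9-fold lower. DESeq2 called Gip, Cck and Sct, but not Gcg or Pyy. Secretin was lower too (740 and 1864 CPM, -1.81, adjusted p = 0.0482), a call that held in 7 of 15 settings. Ghrelin (Ghrl, 1.42), tachykinin 1 (Tac1, -0.06) and the serotonin enzyme Tph1 (0.40) were not called.

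Of the genes outside these lists, Gadd45a, a growth arrest and stress response gene, was higher (904 CPM in Neurog3-positive and 246 in Neurog3-negative granule-positive cells, a change of 1.77, SE 0.23, adjusted p = 0.000709 by edgeR, called in 15 of 15 settings). Serpina1c, a serine protease inhibitor gene with near-identical neighbours whose reads may be split, rose by 2.74 (adjusted p = 0.00512) and is uncertain; it was called in 12 of 15 settings. The tubulin gene Tubb2b rose by 2.03 (351 and 74.8 CPM, adjusted p = 0.0261), the keratin gene Krt7 by 1.36, Cyth2 by 1.39 and Ldb1, a cofactor of LIM homeodomain proteins such as Isl1, by 1.27. These calls were less stable, with Tubb2b called in 10 of 15 settings, Krt7 and Ldb1 in 6 and Cyth2 in 3; all 4 were lost without 5-day replicate 4, without the 3-week traced CD24+ library and without 8-week traced replicate 1 or 3, but stayed positive in every setting. Among the falls, Car8 changed by -2.84 (adjusted p = 0.00302) and Upp1, uridine phosphorylase, by -2.33 (adjusted p = 0.00186), both called in 15 of 15 settings. Scarb1 (-2.90), Resp18 (-2.40), Ank (-2.04) and Neat1 (-1.29) fell as well, with calls in 7, 8, 10 and 8 of 15 settings in that order. None of these 4 was called without the 3-week traced CD24+ library or without any 1 of the 8-week traced libraries; Resp18 fell below the filter without traced replicate 1 or 3. Without the cell of 145041 transcripts 74 genes were called, among them 37 of the 41. Without the Neurog3-positive cells rich in Paneth transcripts 76 were called, among them 39 of the 41.

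**Figure D4:**
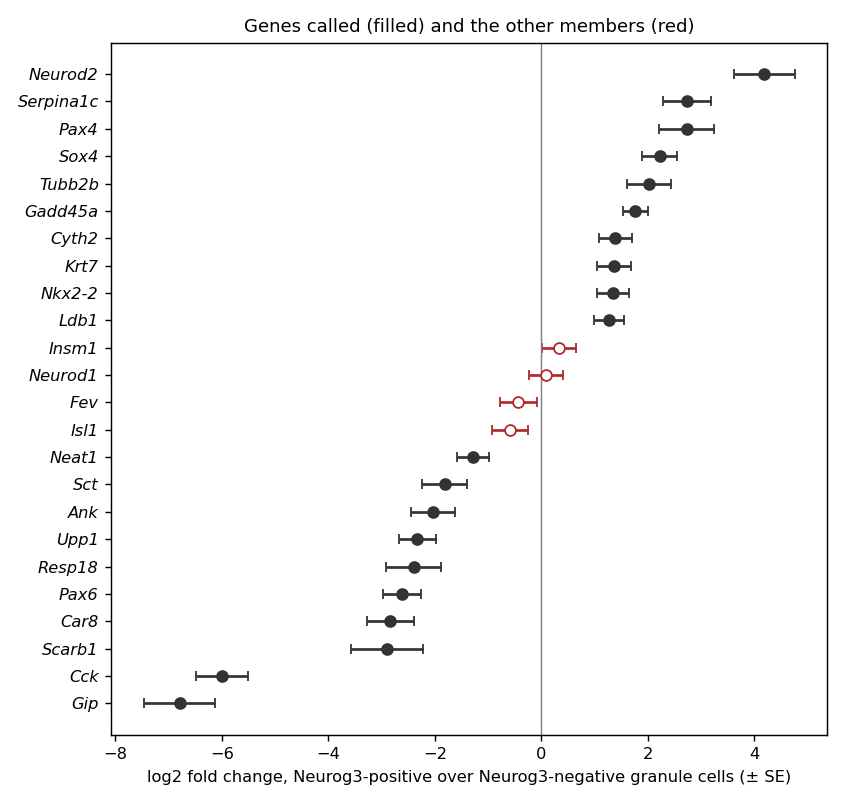
Log2 fold change of Neurog3-positive over Neurog3-negative granule-positive cells (x axis, points with SE) for the genes named by the rule and the other 4 members (open red points), without Neurog3 and the granule gene Scg2, which chose the cells, or Gcg and Pyy, at 0 in Neurog3-positive cells. Of the genes drawn, Neurod2 stands highest at 4.19 and Gip lowest at -6.79, while the 4 members lie between -0.58 and 0.33. Only the Neurog3-negative cells all had to be granule-positive.

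Isl1 and Fev, the later factors, divided the granule-positive cells of the 8-week CD24+ libraries. Of 82 such cells, 40 held both, 12 Isl1 without Fev, 26 Fev without Isl1 and 4 neither. Traced libraries held 19 cells with both, 6 with Isl1 alone, 22 with Fev alone and 3 with neither. Non-traced libraries held 21, 6, 4 and 1 cells in the same order. Cells with Fev alone numbered 10 of 18, 7 of 17 and 5 of 15 in the traced libraries and 2 of 20 and 2 of 12 in the non-traced ones, so that these shares did not overlap. This difference was not tested. Over all cells of these groups, 26.8% of genes had shares of positive cells without overlap, and no such share was taken within granule-positive cells.

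Cells with Fev alone carried the genes of serotonin and substance P. At least 10 transcripts of Tac1, which encodes substance P, were found in 25 of the 26, of Tph1, the enzyme that starts serotonin synthesis in gut cells, in 20, of Chga in 25 and of Chgb in 26. The medians in these cells were 54.4 transcripts of Tac1, 14.9 of Tph1 and 104 of Chga. None reached 10 transcripts of Cck, Gip, Ghrl or Gcg, and 3 did so for Sct. The 40 cells with both factors showed the reverse: 0 reached this limit for Tac1 or Tph1, and 20 did for Cck, 21 for Sct, 15 for Gip, 14 for Ghrl, 7 for Gcg, 4 for Sst and 3 for Pyy. Cells with Isl1 alone (12) also had 0 for Tac1 and Tph1, with 7 for Gip and 5 for Ghrl. Neurog3 was detected in 11 of the 26 cells with Fev alone, in 7 of the 40 with both and in 4 of the 12 with Isl1 alone.

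**Figure D5:**
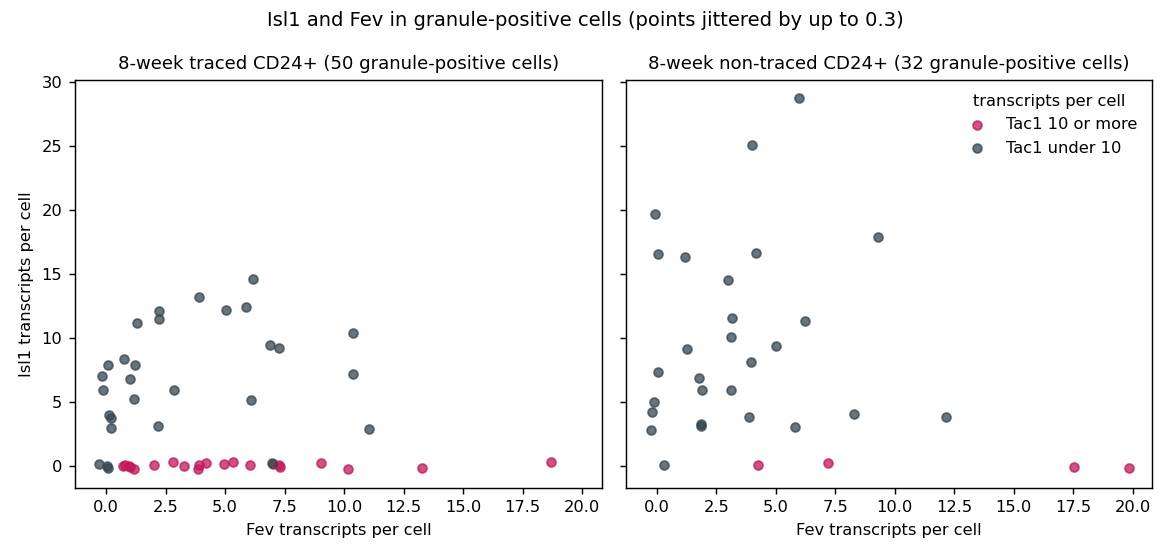
Isl1 (y axis) against Fev (x axis), in transcripts per cell, for granule-positive cells of the 8-week traced CD24+ libraries (left, 50 cells) and the 8-week non-traced CD24+ libraries (right, 32 cells); points are moved at random by up to 0.3, and red points hold at least 10 Tac1 transcripts. All red points lie at 0 Isl1 transcripts, as 25 of the 26 cells with Fev alone reach this Tac1 level and 0 of the 40 cells with both factors do.

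Likeness of pattern was measured by Pearson correlation of log2(transcripts per 10000 + 1), less each library's mean, over 430 cells of the 6 CD24+ libraries of 3 and 8 weeks and 10575 genes. The cells share libraries and depth, so r is a description. Neurog3 was most like Neurod2 (r = 0.80), followed by Rcor2 (0.72), Dbn1 (0.63), Amotl2 (0.58), Myt1 (0.57), Nkx2-2 (0.56), Pax4 (0.56), Tmem44 (0.56), Trp53i11 (0.52) and Vwa5b2 (0.52). These genes were chosen by correlation over the same cells, so their levels by class are no separate evidence. Rcor2, a corepressor, was found in 12 of the 13 cells with at least 10 Neurog3 transcripts, at 325 CPM. It was found in 8 of the 65 Neurog3-negative granule-positive cells (15.7 CPM). Amotl2 was found in 11 of the 13 (420 CPM) and 6 of the 65 (8.53 CPM). Trp53i11 was found in 13 of the 13 (696 CPM), 46 of the 65 (160 CPM) and 88 of the 325 other Neurog3-negative cells (31.3 CPM). Among the members Neurog3 was nearest to Neurod1 (0.48) and Insm1 (0.47), and farther from Fev (0.22) and Isl1 (0.18). With Spearman correlation 3 of the 10 genes stayed among the 10 nearest, and the value for Isl1 turned to -0.29. Neurog3 was detected in 40 of the 430 cells and Isl1 in 68. Most ranks thus belong to cells at 0 less the library mean, so the Spearman values are not read as a relation within cells. By detection, Isl1 was more frequent in Neurog3-positive than in Neurog3-negative cells in 6 of 7 libraries.

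By Pearson correlation the other members stood nearer to granule genes than to Neurog3. Neurod1 was most like Aplp1 (0.85), Cpe (0.84), Vwa5b2 (0.84), Insm1 (0.82) and Ddc (0.82), the decarboxylase of serotonin synthesis. Insm1 was most like Neurod1 (0.82), Gfra3 (0.78), Aplp1 (0.77), Rfx6 (0.76) and Cpe (0.75). Isl1 was nearest to Scgn (0.93), which encodes secretagogin, then to Abcc8 (0.85), Fam183b (0.80), Cpe (0.80) and Aplp1 (0.78). Fev was nearest to Aplp1 (0.77), Chgb (0.77), Gch1 (0.77), an enzyme for the cofactor of serotonin synthesis, Ptprn2 (0.76) and Hmgn3 (0.75). These lists depend on the measure: with Spearman correlation 1 of the 5 stayed among the 5 nearest for Neurod1, 1 for Insm1, 2 for Isl1 and 0 for Fev. The limit given above for ranks of cells at 0 holds for these members too.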

How the data were processed

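Single cells were measured by CEL-seq, which tags 3' transcript ends with cell and molecular barcodes. The authors deposited expected counts of transcripts, corrected for barcode collisions and unscaled. The values themselves show this, since 99.995% of those above 0 match a whole number of barcodes out of 256 to within 0.01, with 145 at the ceiling of 1597. BWA 0.6.2-r126 and mm10 are named, per the submitters' processing notes; gene models are not given in the sources used here.

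Barcodes with at least 3000 transcripts, spike-ins not counted, were kept (892 of 1248). No doublet detection was run. Library sums over cells, rounded to whole numbers, were tested with edgeR 4.0.16 (quasi-likelihood, TMM, filterByExpr, Benjamini-Hochberg, threshold 0.05) in R 4.3.3, with DESeq2 1.42.0 as an alternative. The fits were first tested on simulated data. The library was the replicate. The batch block divides the 8-week CD24+ libraries by whether their names in the combined table carry the suffix II, whose meaning is not stated there. Shares were compared by exact permutation over libraries. Intervals and floors cover counting error only.

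Named genes were the members, list genes past a test, the 10 largest rises and falls in the Neurog3-positive comparison (at least 20 CPM, the same direction in every library), the 10 genes most like Neurog3 and the 5 most like each other member. Lists held 25 endocrine factors, 16 Notch and secretory choice genes, 10 granule and 12 hormone genes. Values of a further list gene are not reported here. Members and lists were chosen with earlier results of these data known. Leaving out libraries, other filters, cell minimums, scalings, a replicate block and a batch block were tried as alternatives.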

Additional observations from a re-analysis of the deposited data

Results flagged for a closer look

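Chance flags about 1 in 20 groups, and 10 groups of 5 libraries were examined. Neurod1 stood at 36.7 raw CPM in replicate 5 of the 5-day libraries, far from the other 4 (7.05 to 14.7). Fev was detected in 25% of the cells of replicate 4 of the 5-day libraries, far from the other 4, which held it in 2 to 5 cells each. In replicate 4, Ghrl was detected in 56 of 61 granule-negative cells and Fev in 12 of these 61; the part of that in the Fev share was not tested.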

How the results depend on the processing

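For 8-week traced CD24+ against 5-day traced cells, the changes of the 5 members and the number of genes called, 84 values in all, kept their direction and call under the alternatives, with 3057 genes called under the replicate block and 2469 to 3045 with a library left out. For traced against non-traced cells, Neurog3 stayed called and higher in all alternatives (2.67 to 4.81 with a library left out, 3.08 with the replicate block, adjusted p = 0.00347 by edgeR). The number of genes called was 180 with DESeq2, 811 with no filter, 485 with the replicate block and 55 to 344 with a library left out. Isl1 was called with no filter (-0.82, adjusted p = 0.00355 by edgeR). The sign turned for Insm1 with at least 5000 transcripts per cell (-0.028) and without the cell over 100000 transcripts (-0.034), and for Fev with the replicate block (0.20) and without the top cell (0.10). With a library left out, Neurod1 ran from -0.052 to 0.38, Insm1 from -0.026 to 0.22, Isl1 from -1.16 to -0.45 and Fev from -0.32 to 0.21. Shares of cells turned for Insm1 when thinned (-0.654 points) or at 2 transcripts (-0.766) and for Fev when thinned (0.260) or at 1500 transcripts per cell (0.118). With a library left out they ran from 8.73 to 12.5 for Neurog3, -0.648 to 8.48 for Neurod1, 1.39 to 3.74 for Insm1, -11.5 to -5.51 for Isl1 and -3.75 to 2.81 for Fev.

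In granule-positive cells, 4 genes were called with DESeq2, 41 with no filter, 1 at 1500 transcripts per cell, 44 with the replicate block, 6 with the batch block, 9 at 5 granule genes and 0 to 28 with a library left out. Neurog3 was called with DESeq2 (2.91), no filter (2.85), 1500 transcripts per cell (2.94), the replicate block (2.93) and the batch block (2.89). It was also called without non-traced replicate 2, the values with a library left out being 2.80 to 3.00. Without the cell over 100000 transcripts Neurod1 was -0.017 and Fev -0.14, and at 5 granule genes -0.050 and -0.16. With a library left out Neurod1 ran from -0.22 to 0.89, Insm1 from -0.78 to 0.37, Isl1 from -0.93 to -0.05 and Fev from -0.50 to 0.98.

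For Neurog3-positive against Neurog3-negative granule cells, 110 genes were called with no filter, 16 at 5000 transcripts per cell, 87 at 2 Neurog3 transcripts, 76 without Paneth-rich cells, 74 without the cell over 100000 transcripts and 14 to 92 with a library left out. The alternatives on Paneth-rich cells and on the cell over 100000 transcripts were chosen after seeing the data. Neurod1 turned to -0.0024 with no filter, -0.11 at 5 granule genes and -0.011 without the large cell. With a library left out Neurod1 ran from -0.12 to 0.37, Insm1 from 0.17 to 0.63, Isl1 from -1.05 to -0.37 and Fev from -0.89 to -0.27.

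Shares with Neurog3, in points, kept their sign but passed no threshold when thinned, at 2 transcripts of both or at 5000 transcripts per cell, where fewer libraries remain. In that order they were 46.9, 73.4 and 54.9 for Neurod1, 54.1, 60.2 and 45.1 for Insm1, 19.5, 32.2 and 21.9 for Isl1 and 16.2, 29.2 and 22.3 for Fev. With a library left out they ran from 51.1 to 61.5, 47.8 to 55.2, 18.1 to 27.1 and 20.7 to 30.04, and of 7 such settings Neurod1 and Insm1 passed in 2 and Isl1 and Fev in 1. Each other cause of these moves was not tested. The equal replicate numbers were not taken to pair libraries (residual r 0.0844 and 0.126).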
